A study of Mus musculus with 6 samples.

Results

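Fatty acid synthesis and fatty acid oxidation were examined through 35 genes, chosen by symbol from the 55421 gene IDs of the count tables. All 35 passed the filter on low counts, among 17016 genes tested. By role, 12 genes belong to synthesis, 4 to acyl-CoA activation, 16 to oxidation (the carnitine shuttle, mitochondrial beta-oxidation and peroxisomal steps) and 3 to control and uptake. The RNA came from pancreatic islets of wild-type C57BL/6 mice, in 2 groups of 3 libraries. One group had been given insB:9-23, a ligand named after an insulin B chain peptide, and the other vehicle. The labels give neither dose, duration nor age, and do not say whether a library is 1 animal or a pool. Whether it was given to animals or to islets in culture is not stated either. The p-values therefore cover library-to-library spread only, part or all of which could be technical.

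Synthesis begins in the cytosol, where ATP citrate lyase (Acly) turns citrate into acetyl-CoA, acetyl-CoA carboxylase makes malonyl-CoA from it, and fatty acid synthase (Fasn) builds palmitate. Elongases and desaturases then lengthen the chain and add double bonds. Oxidation runs the other way: synthetases attach CoA to the fatty acid, the carnitine shuttle carries it into mitochondria, and a cycle of dehydrogenases, hydratases and thiolases shortens it. Malonyl-CoA blocks the entry step of the shuttle, and in beta cells this switch is a textbook link between glucose supply and lipid signals for insulin secretion.

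Library totals ranged from 53805531 to 58445046 counts after insB:9-23 and from 52052808 to 58880189 counts in vehicle, and the lowest count of any of these genes in any library was 40 (Ppara). Beta cell markers (13 genes) took 9.65% to 13.9% of counts after insB:9-23 and 12.1% to 13.9% in vehicle. Of these markers, Mafa, a beta cell transcription factor gene, had 0 counts in every library. The cause was not tested, so this 0 is not read as absence of its RNA. Markers of acinar cells, which surround islets and make digestive enzymes, took 18.5%, 16.3% and 24.8% of counts in insB:9-23 replicates 1 to 3 and 14.9%, 16.3% and 17.4% in vehicle replicates 1 to 3 (30 genes, none at 0 throughout). The libraries thus held islet and exocrine RNA together. One library, insB:9-23 replicate 2, stood apart in immune cell markers: B and plasma cell markers (7 genes) took 0.00685% of its counts, against at most 0.00150% in any other library, and T and NK cell markers (9 genes) 0.00157%, against at most 0.000352%. Macrophage and dendritic markers (10 genes) took 0.0115% of its counts and at most 0.00610% in any other. The part of these cells in the results was not tested. Without this library the log2 fold changes of Fasn, Acly, Scd2, Scd1 and Acacb, described below, were -0.33, -0.36, -0.24, 0.39 and 0.84, against -0.40, -0.31, -0.23, 0.37 and 0.66 with it.

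Levels differed widely between the 35 genes. On the scale of CPM (counts relative to the TMM-scaled library size) per kilobase of merged exons, Acly was the highest of them, with a level of 233 ± 12.9 after insB:9-23 and 289 ± 24.7 in vehicle (SD, n = 3 each, as for all values below). Next came Hadh, the short-chain hydroxyacyl-CoA dehydrogenase whose loss causes hyperinsulinism in people, with a level of 73.7 ± 24.1 and 80.5 ± 25.8 CPM per kilobase in the insB:9-23 and vehicle groups. Elovl5, an elongase of polyunsaturated chains, and Scd2, a desaturase, followed with levels of 35.5 ± 2.60 and 29.9 ± 1.27 after insB:9-23 and 38.1 ± 1.04 and 35.1 ± 0.302 in vehicle. In every library of either group Hadh lay above Elovl5 and Elovl5 above Scd2. Srebf1, the gene of the lipogenic transcription factor SREBP-1, had a level of 20.6 ± 2.65 after insB:9-23 and 22.8 ± 1.36 in vehicle. Cpt2, the inner membrane carnitine palmitoyltransferase, had a level of 15.7 ± 1.89 after insB:9-23 and 18.2 ± 3.53 in vehicle, and Acadvl, the very long-chain acyl-CoA dehydrogenase, 18.1 ± 0.520 and 17.4 ± 0.909. In vehicle this pair did not differ beyond its spread, while after insB:9-23 the means lay further apart than either SD, with overlapping libraries.

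Several genes stood at a low level. Acacb, the carboxylase attached to mitochondria, had a level of 1.71 ± 0.408 CPM per kilobase after insB:9-23 and 1.08 ± 0.147 in vehicle. Its cytosolic sister Acaca had a level of 2.10 ± 0.0802 after insB:9-23 and 2.39 ± 0.217 in vehicle. Ppara, the nuclear receptor that drives oxidation genes in liver, was lowest, with a level of 0.378 ± 0.0567 after insB:9-23 and 0.240 ± 0.0864 in vehicle. Elovl6, Cd36, Acox3 and Acsl1 were also low, with levels of 1.29, 1.65, 1.74 and 2.02 after insB:9-23 and of 1.57, 1.22, 1.72 and 2.27 in vehicle. Ppard, a relative of Ppara, had a level of 3.75 ± 0.386 after insB:9-23 and 3.67 ± 0.126 in vehicle, and was the more abundant of these receptors in every library. Merged exons include retained introns that GENCODE annotates, so long gene models such as that of Echs1 (8286 bases), the mitochondrial enoyl-CoA hydratase, lower this measure.

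**Figure D1:**
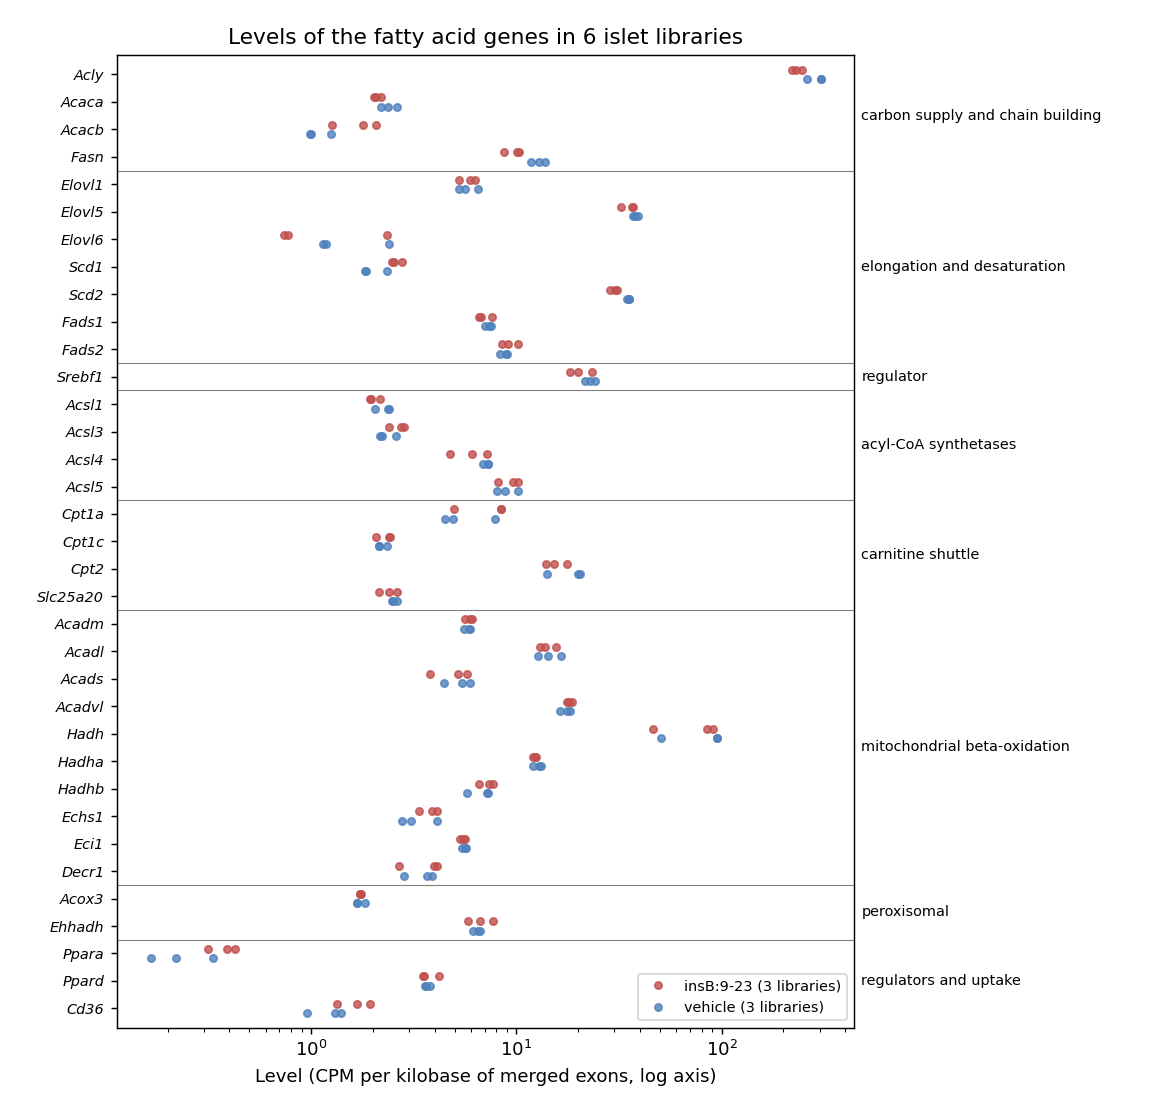
Level of each of the 35 genes in CPM per kilobase of merged exons (log axis), 1 point per library, with insB:9-23 libraries above vehicle libraries in each row and rows grouped by role. Acly lies above all other genes and Ppara below them, and the groups lie close together for most oxidation genes.

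None of the 35 genes passed edgeR's quasi-likelihood test of insB:9-23 against vehicle at an adjusted p of 0.05, a mark that 14 of 17016 genes (0.0823%) reached. The smallest edgeR adjusted p among them was 0.83. Before adjustment, 5 of 12 synthesis genes had an edgeR p below 0.05, against 5.55% of all genes tested. By direction, Fasn, Acly and Scd2 were the 3 lower ones (2.81% of all genes) and Acacb and Scd1 the 2 higher ones (2.74% of all genes). Of the 16 oxidation genes, the 4 activation genes and the 3 of control and uptake, 0 had an unadjusted p below 0.05. With 1 library left out the synthesis count was 3 to 5, with 3 without vehicle replicate 1 or insB:9-23 replicate 3, and the oxidation count was 1 without vehicle replicate 2 or 3 and otherwise 0. The members were chosen with earlier results of these data known, so these counts describe them and test nothing about them as a group.

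The median log2 fold change was -0.13 over the synthesis genes and 0.020 over the oxidation genes, beside 0.0087 over all genes tested. Scaled by library totals alone, all 3 medians were lower, at -0.27, -0.13 and -0.15. The median size of the log2 fold change, sign aside, was 0.21 for synthesis and 0.063 for oxidation, beside 0.17 for all genes. All genes, with log2 fold changes from -15.6 to 15.8, were not matched to the members by level. Of the synthesis genes 8 of 12 had a log2 fold change below 0, and of the oxidation genes 7 of 16. The groups did not overlap for 6 of 12 synthesis genes, 4 lower and 2 higher after insB:9-23, and for 0 of 16 oxidation genes. Over all genes tested the groups did not overlap in 13.5%, 7.12% lower and 6.4% higher. In bulk RNA of this kind, fewer cells of a type and less RNA per cell cannot be told apart.

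**Figure D2:**
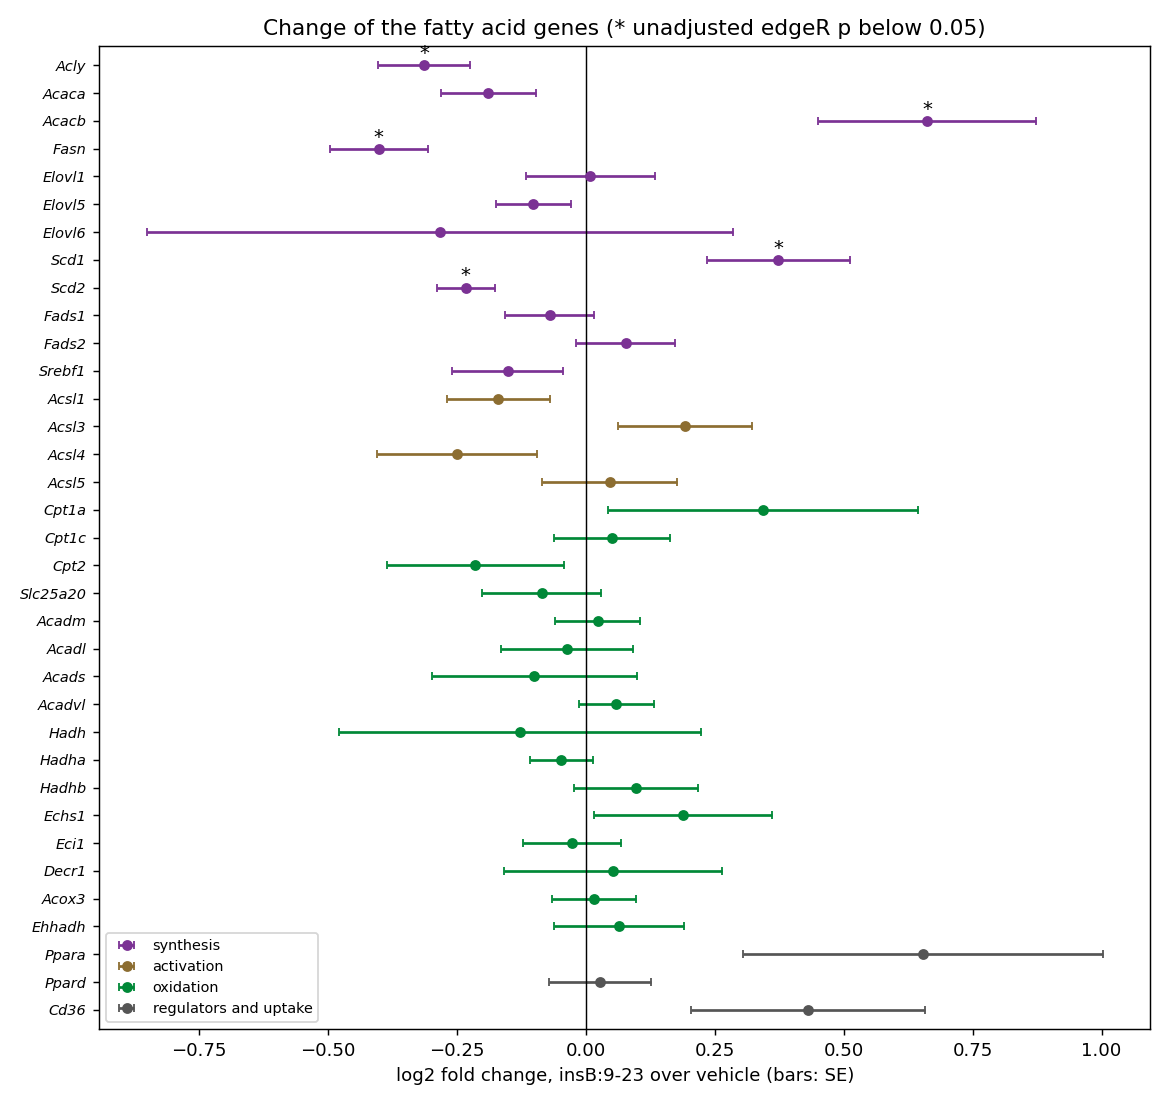
log2 fold change of insB:9-23 over vehicle for each of the 35 genes, with bars for the standard error and colours for the branch, and an asterisk where the unadjusted edgeR p was below 0.05. All 5 asterisks are on synthesis genes, from -0.40 (Fasn) to 0.66 (Acacb), and the oxidation genes lie between -0.21 and 0.34.

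Fasn, which assembles palmitate from acetyl-CoA and malonyl-CoA, was at 113, 95.4 and 110.6 CPM in insB:9-23 replicates 1 to 3, against 141, 151 and 129.5 CPM in vehicle replicates 1 to 3. All insB:9-23 libraries lay below all vehicle libraries, with replicate 2 the lowest. The log2 fold change was -0.40 ± 0.09 (SE; edgeR adjusted p = 0.83, unadjusted p = 0.0055). With the acinar share as a covariate the log2 fold change of Fasn was -0.45 ± 0.12 (SE; edgeR adjusted p = 0.94).

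Acly, which supplies the acetyl-CoA, was at 1168, 1302 and 1216 CPM in insB:9-23 replicates 1 to 3, against 1376, 1602 and 1602 CPM in vehicle replicates 1 to 3. Again the groups did not overlap, and the gap between the highest insB:9-23 library and the lowest vehicle library was smaller than the range within either group. The log2 fold change was -0.31 ± 0.09 (SE; edgeR adjusted p = 0.88, unadjusted p = 0.013).

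Scd2 encodes a stearoyl-CoA desaturase, which puts a double bond into saturated chains, and is the main form of that enzyme in mouse brain. It was at 155, 165 and 169 CPM in insB:9-23 replicates 1 to 3 and at 190, 193 and 192 CPM in vehicle replicates 1 to 3. The vehicle libraries lay within a narrow band, and every insB:9-23 library was below it. The log2 fold change was -0.23 ± 0.06 (SE; edgeR adjusted p = 0.83, unadjusted p = 0.0059). Fasn, Acly and Scd2 kept an unadjusted p below 0.05 in all 13 alternative fits (edgeR, DESeq2 and limma-voom), those without 1 library included. Their adjusted p in those fits (edgeR, DESeq2 or limma-voom) ran from 0.25 to 0.99. The 3 genes were picked by their p in the same libraries that these fits reuse, so this is no independent support. With the acinar share as a covariate Acly and Scd2 had log2 fold changes of -0.32 and -0.26.

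Scd1, the desaturase that dominates in mouse liver and fat, stood the other way. It was at 12.2, 12.4 and 13.5 CPM in insB:9-23 replicates 1 to 3, against 8.98, 9.02 and 11.4 CPM in vehicle replicates 1 to 3, without overlap. Its log2 fold change was 0.37 ± 0.14 (SE; edgeR adjusted p = 0.88, unadjusted p = 0.036). Without any 1 library other than vehicle replicate 3 the unadjusted p was above 0.05, as it was with library totals alone and with the acinar share as a covariate, where the log2 fold change was 0.27 ± 0.16 (SE; edgeR adjusted p = 0.95).

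Acacb, whose malonyl-CoA restrains fatty acid entry into mitochondria, was at 17.2, 12.2 and 19.9 CPM in insB:9-23 replicates 1 to 3, against 9.53, 12.04 and 9.63 CPM in vehicle replicates 1 to 3. The groups did not overlap, but insB:9-23 replicate 2 stood only just above vehicle replicate 2. The log2 fold change was 0.66 ± 0.21 (SE; edgeR adjusted p = 0.88, unadjusted p = 0.020). With the acinar share as a covariate the log2 fold change was 0.37 ± 0.20 (SE; edgeR adjusted p = 0.94). The unadjusted p was above 0.05 in 6 of the 13 alternative fits, among them that covariate and the fits without insB:9-23 replicate 1 or 3 or vehicle replicate 1 or 3.

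Acaca, the cytosolic carboxylase, was at 35.3, 34.7 and 37.3 CPM in insB:9-23 replicates 1 to 3 and at 44.7, 40.3 and 37.3 CPM in vehicle replicates 1 to 3. Its groups were apart only in the second decimal, between replicate 3 of either group, and its log2 fold change was -0.19 ± 0.09 (SE; edgeR adjusted p = 0.88). Srebf1 overlapped between the groups, with 132, 103.1 and 112 CPM in insB:9-23 replicates 1 to 3 and 128, 137 and 121 CPM in vehicle replicates 1 to 3 (log2 fold change -0.15 ± 0.11, SE; edgeR adjusted p = 0.89).

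**Figure D3:**
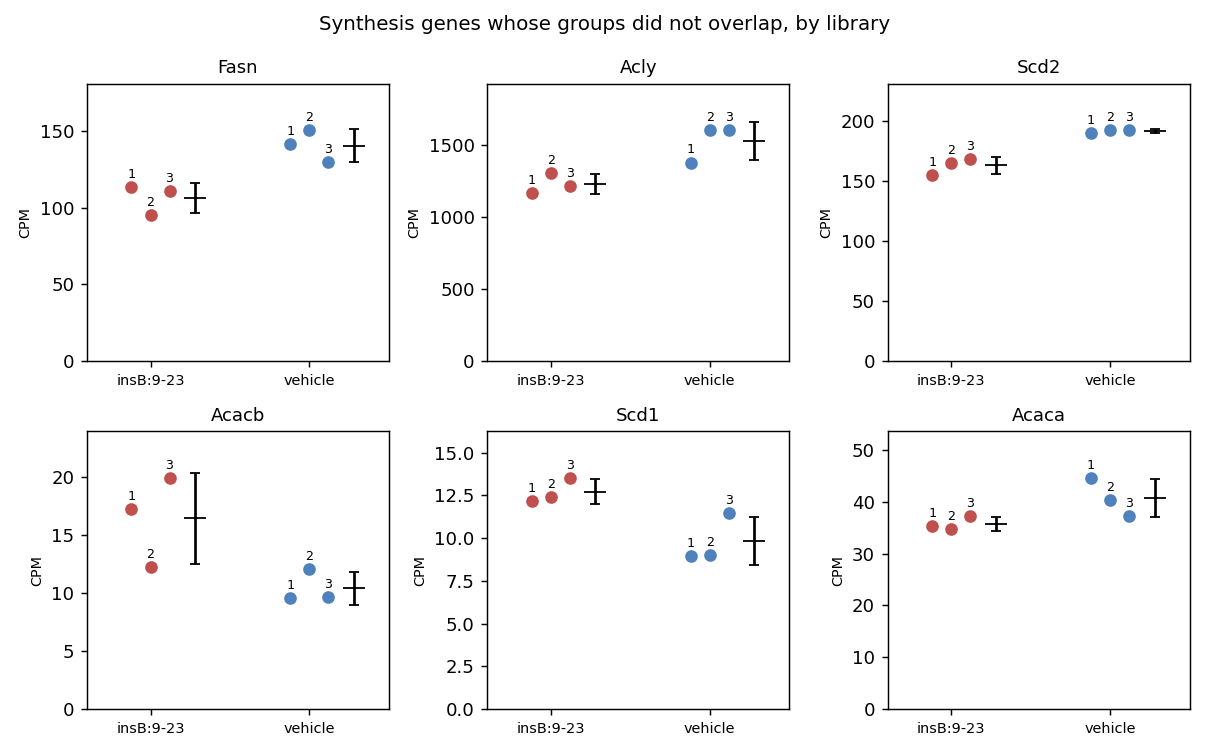
CPM of Fasn, Acly, Scd2, Acacb, Scd1 and Acaca in each library (points, numbered by replicate) with the mean and SD of 3 libraries beside them, insB:9-23 left of vehicle, each axis from 0. Every insB:9-23 point lies below every vehicle point for Fasn, Acly, Scd2 and, in the second decimal, Acaca, and above every vehicle point for Acacb and Scd1.

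The remaining synthesis genes overlapped between the groups, with log2 fold changes from -0.28 to 0.078. Fads1 and Fads2, the desaturases that make polyunsaturated fatty acids, were at 33.5 ± 2.58 and 30.5 ± 2.89 CPM after insB:9-23 and at 35.2 ± 1.33 and 28.9 ± 1.19 CPM in vehicle. Elovl5 was at 125 ± 9.15 CPM after insB:9-23 and 134 ± 3.65 CPM in vehicle, and Elovl1, an elongase of very long chains, at 15.9 ± 1.42 and 15.8 ± 1.69 CPM.

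The promoters of Fasn, Acly and Acacb are shown because Fasn and Acacb had the lowest and the highest fold change among the synthesis genes and Acly the highest level. RefSeq (GRCm38.p6) gave promoters for 31 of the 35 genes, and not for Scd1, Scd2, Fads1 and Decr1. Each run is the 250 bases before the annotated start, and capitals mark matches on either strand to CCAAT (the box bound by NF-Y) or GGGCGG (the GC box bound by Sp1 proteins). The strands and positions are chr11:120824548-120824797, minus strand, for Fasn, chr11:100528001-100528250, minus strand, for Acly, and chr5:114165268-114165517, plus strand, for Acacb. The RefSeq start of Acacb lies 18983 bases inside the GENCODE gene.
Fasn: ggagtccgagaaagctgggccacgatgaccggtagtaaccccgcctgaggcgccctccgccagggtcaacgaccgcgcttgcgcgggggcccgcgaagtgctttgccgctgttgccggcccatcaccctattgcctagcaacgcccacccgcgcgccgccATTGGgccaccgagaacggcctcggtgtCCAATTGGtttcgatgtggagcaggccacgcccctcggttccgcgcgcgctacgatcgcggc
Acly: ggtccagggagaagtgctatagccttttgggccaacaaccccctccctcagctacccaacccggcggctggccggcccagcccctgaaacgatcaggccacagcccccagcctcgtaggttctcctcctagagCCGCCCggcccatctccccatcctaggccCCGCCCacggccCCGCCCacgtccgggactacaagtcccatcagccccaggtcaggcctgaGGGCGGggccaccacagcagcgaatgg
Acacb: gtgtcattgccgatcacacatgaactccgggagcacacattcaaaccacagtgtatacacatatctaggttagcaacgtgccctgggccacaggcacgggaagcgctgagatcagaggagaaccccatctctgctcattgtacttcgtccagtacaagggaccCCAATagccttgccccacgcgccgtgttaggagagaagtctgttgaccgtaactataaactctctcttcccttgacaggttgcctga
In Fasn there were 3 matches to the CCAAT letters, 2 of them overlapping in 1 palindrome, and 0 GC boxes. Acly held 4 GC boxes and 0 CCAAT matches, and Acacb 1 CCAAT match and 0 GC boxes. Of 32851 mouse promoters of this length, 33.8% held a CCAAT match and 32.7% a GC box. Among genes with an entry, a CCAAT match stood in 5 of 9 synthesis genes and 4 of 15 oxidation genes, and a GC box in 4 of 9 and 13 of 15. The 31 genes had 35 promoter entries, and a gene was counted if any of its entries matched. The shares of all promoters count single entries, so the 2 measures are not alike. The letters TCACNCCAC, a sterol regulatory element motif of SREBP proteins, were in 1.05% of all promoters, in 0 of the 9 synthesis genes and in 1 oxidation gene (Ehhadh). The direct repeat that PPAR receptors bind, AGGTCA and a second AGGTCA with 1 base between, was in 0.0335% of all promoters and in 0 of these 31 genes. Only exact letters within these 250 bases were sought, so a count of 0 does not show that a gene lacks such a site.

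Gene positions on GRCm38 follow GENCODE M21. Fasn (120805846 to 120824547), Acly (100476353 to 100528000), Acaca (84129672 to 84401651) and Srebf1 (60199089 to 60222581) lie on chromosome 11. Scd2 (44293674 to 44306864) and Scd1 (44394455 to 44407879) lie in a cluster on chromosome 19, which also holds Cpt1a (3322334 to 3385733). Acacb (114146535 to 114250761) is on chromosome 5 and Hadh (131233419 to 131272101) on chromosome 3. Of the 50-base stretches in the transcripts of these genes, 0 of those of Fasn, Acly and Acacb recurred in transcripts of another gene, against 4.56% for Scd1 and 3.97% for Scd2, which share sequence with each other and with Scd3. For Acaca the share was 30.4%, nearly all of it with Gm5182, which had 0 counts in all 6 libraries. Reads in such stretches could be split or dropped in counting, so the counts of Scd1, Scd2 and Acaca are less certain than those of Fasn and Acly. The same limit applies to Hadhb and Acsl1, with shares of 19.7% and 9.23%. Most of the Hadhb share was with Gm13910, which had 0 counts in all 6 libraries.

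The 4 long-chain acyl-CoA synthetases, which activate fatty acids for either fate, all overlapped between the groups. Acsl4, which prefers arachidonate, was at 33.0, 38.8 and 25.7 CPM in insB:9-23 replicates 1 to 3, against 39.4, 37.1 and 39.4 CPM in vehicle replicates 1 to 3 (log2 fold change -0.25 ± 0.16, SE; edgeR adjusted p = 0.88). Acsl5, the most abundant of them per length, was at 45.2 ± 5.21 CPM after insB:9-23 and 43.8 ± 5.45 CPM in vehicle. Acsl1 and Acsl3 had log2 fold changes of -0.17 and 0.19.

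Genes of the carnitine shuttle stood in no common direction. Cpt1a, which performs the entry step that malonyl-CoA inhibits, was at 64.2, 38.1 and 64.6 CPM in insB:9-23 replicates 1 to 3 and at 34.2, 59.9 and 37.4 CPM in vehicle replicates 1 to 3. The libraries stood at a high and a low level, with members of both groups at each. Its log2 fold change was 0.34 ± 0.30 (SE; edgeR adjusted p = 0.90), and 0.05 ± 0.36 with the acinar share as a covariate (edgeR adjusted p = 0.99). It was 0.64 without vehicle replicate 2, 0.56 without insB:9-23 replicate 2, 0.19 without vehicle replicate 1 and 0.23 without insB:9-23 replicate 1 or 3. Cpt2 was at 42.4, 36.6 and 33.5 CPM in insB:9-23 replicates 1 to 3 and at 47.6, 33.8 and 49.1 CPM in vehicle replicates 1 to 3, also with overlap (log2 fold change -0.21 ± 0.17, SE; edgeR adjusted p = 0.90). Slc25a20, the carrier that exchanges acylcarnitine for carnitine, was at 11.6 ± 1.15 CPM after insB:9-23 and 12.3 ± 0.383 CPM in vehicle. Cpt1c, a neuronal form that sits in the endoplasmic reticulum, was at 12.9 ± 1.12 and 12.4 ± 0.640 CPM.

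The beta-oxidation enzymes all overlapped between the groups, with log2 fold changes from -0.13 to 0.19 over 10 genes. Their standard errors ran from 0.06 (Hadha) to 0.35 (Hadh). Equality of levels was not tested, so equal levels were not shown for any of them. Hadha, the alpha subunit of the trifunctional protein that handles long chains, was at 109, 107 and 105.5 CPM in insB:9-23 replicates 1 to 3, against 113, 104.9 and 115 CPM in vehicle replicates 1 to 3. Its log2 fold change was -0.05 ± 0.06 (SE; edgeR adjusted p = 0.93). Its partner Hadhb was at 47.6 ± 3.68 CPM after insB:9-23 and 44.5 ± 5.65 CPM in vehicle. Acadvl, which takes the first step for very long chains, was at 47.6, 50.2 and 48.2 CPM in insB:9-23 replicates 1 to 3 and at 47.2, 44.0 and 48.8 CPM in vehicle replicates 1 to 3. Of its 50-base stretches 26.9% also lie in Dvl2, a neighbour on the other strand, and whether counting used the strand was not stated.

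For the dehydrogenases of long, medium and short chains the group means lay within the spread. Acadl was at 28.3 ± 2.66 CPM after insB:9-23 and 29.1 ± 3.80 CPM in vehicle, Acadm at 23.1 ± 1.02 and 22.7 ± 0.898 CPM, and Acads at 11.2 ± 2.29 and 11.98 ± 1.74 CPM. Eci1 and Decr1, which deal with double bonds that the cycle cannot take directly, were at 11.7 ± 0.308 and 13.9 ± 3.05 CPM after insB:9-23 and at 11.9 ± 0.278 and 13.4 ± 2.15 CPM in vehicle. Echs1 was at 31.2 ± 3.21 CPM after insB:9-23 and 27.4 ± 5.89 CPM in vehicle. In peroxisomes, which shorten very long and branched chains, Acox3, an acyl-CoA oxidase for branched chains, was at 20.1 ± 0.177 CPM after insB:9-23 and 19.8 ± 0.998 CPM in vehicle. Ehhadh, the peroxisomal bifunctional enzyme, was at 20.0 ± 2.89 and 19.1 ± 0.793 CPM.

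Hadh, Cpt1a and Elovl6 varied within both groups. Hadh was at 229, 451 and 420.1 CPM in insB:9-23 replicates 1 to 3 and at 475, 475 and 252 CPM in vehicle replicates 1 to 3, so 1 library of each group lay near the lower level. Elovl6, the elongase that takes palmitate to stearate, was at 4.99, 15.1 and 4.76 CPM in insB:9-23 replicates 1 to 3 and at 15.4, 7.58 and 7.35 CPM in vehicle replicates 1 to 3, high in 1 library of each group. The highest library was 2.07-fold the lowest for Hadh, 1.89-fold for Cpt1a and 3.22-fold for Elovl6, against a median of 1.48-fold over 13313 genes with a mean of at least 1 CPM and no 0. Elovl6 exceeded 89.0% of those genes in this measure. Vehicle replicate 3 was at the lower level for all 3 genes and insB:9-23 replicate 1 for Hadh and Elovl6, while the other low libraries differed between the genes. Eci1 (1.07-fold), Acox3 (1.09-fold), Hadha (1.09-fold) and Acadm (1.10-fold) were at the other end, with at most 1.99% of those genes steadier.

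**Figure D4:**
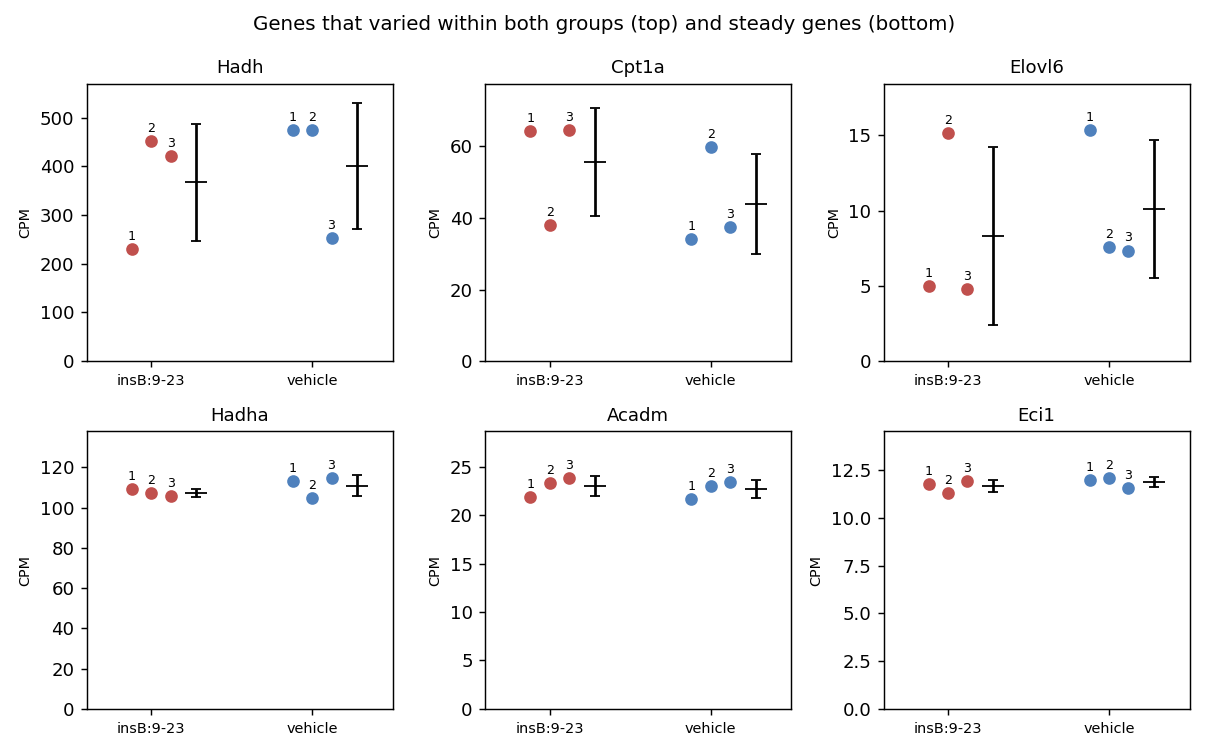
CPM of Hadh, Cpt1a and Elovl6 (top row) and of Hadha, Acadm and Eci1 (bottom row) in each library, numbered by replicate, with the mean and SD of 3 libraries, insB:9-23 left of vehicle and each axis from 0. In the top row both groups hold high and low libraries, and in the bottom row all 6 libraries lie close together.

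Cd36 and Ppara, which serve uptake and control, had the larger fold changes outside synthesis but overlapped between groups. Cd36, a fatty acid translocase also made by endothelial cells and macrophages, was at 6.95, 5.99 and 4.78 CPM in insB:9-23 replicates 1 to 3 and at 4.70, 3.43 and 5.02 CPM in vehicle replicates 1 to 3 (log2 fold change 0.43 ± 0.23, SE; edgeR adjusted p = 0.88). Endothelial markers took 0.0361% to 0.0482% of counts after insB:9-23 and 0.0480% to 0.0538% in vehicle (10 genes, none at 0 throughout). Macrophage and dendritic markers took 0.00513%, 0.0115% and 0.00317% in insB:9-23 replicates 1 to 3 and 0.00565% to 0.00610% in vehicle (none of the 10 genes at 0 throughout). Adipocyte markers took at most 0.000517% after insB:9-23 and 0.000490% in vehicle, most of it Fabp4, with Lep and Adrb3 at 0 in all libraries and Adipoq at no more than 0.0683 CPM. Ppara was at 1.21, 1.49 and 1.64 CPM in insB:9-23 replicates 1 to 3 and at 0.633, 1.28 and 0.843 CPM in vehicle replicates 1 to 3 (log2 fold change 0.65 ± 0.35, SE; edgeR adjusted p = 0.88). Ppard was at 28.2 ± 2.898 CPM after insB:9-23 and 27.6 ± 0.951 CPM in vehicle.

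Set against each other within a library, the summed level of the synthesis genes was 2.21, 1.86 and 1.79 times that of the oxidation genes in insB:9-23 replicates 1 to 3 and 1.90, 2.22 and 2.63 times in vehicle replicates 1 to 3 (CPM per kilobase). The groups overlapped. Acly made up 63.5% to 66.5% of the synthesis sum after insB:9-23 and 65.6% to 69.2% in vehicle, and Hadh 29.3% to 45.4% and 30.3% to 47.6% of the oxidation sum, so this ratio largely compares those 2 genes. Leaving out Hadh, a choice made after its values were seen, gave 3.13, 3.399 and 3.11 for insB:9-23 replicates 1 to 3 and 3.50, 4.24 and 3.77 for vehicle replicates 1 to 3, without overlap. In that ratio Acly, whose own groups did not overlap, was still most of the synthesis sum, so it largely repeats the Acly result. Without Acly and Hadh, also a choice made after the data were seen, the ratios were 1.14, 1.14 and 1.10 after insB:9-23. In vehicle they were 1.21, 1.34 and 1.16, also without overlap, though by a narrow margin. Scd2 and Fasn, each lower without overlap on its own, were still in that synthesis sum, so this ratio partly repeats those single genes. As the members were chosen with results known, these sums were not tested.

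Within a library, the level of an enzyme relative to its sister form does not depend on library scaling. Scd1 stood at 8.76%, 8.40% and 8.96% of the Scd2 level per length in insB:9-23 replicates 1 to 3, against 5.28%, 5.23% and 6.65% in vehicle replicates 1 to 3. Acacb stood at 86.4%, 62.3% and 94.8% of the Acaca level per length in insB:9-23 replicates 1 to 3, against 37.8%, 53.0% and 45.7% in vehicle replicates 1 to 3. For both pairs all insB:9-23 libraries lay above all vehicle libraries, which a two-sided exact permutation test puts at p = 0.10 for each, the smallest value that 3 against 3 allows. Both pairs were chosen after their values were seen. Scd1 and Acacb were already higher, and Scd2 and Acaca lower, without overlap. The ratios therefore had to separate, the p of 0.10 was fixed in advance, and they add no evidence to the single genes.

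**Figure D5:**
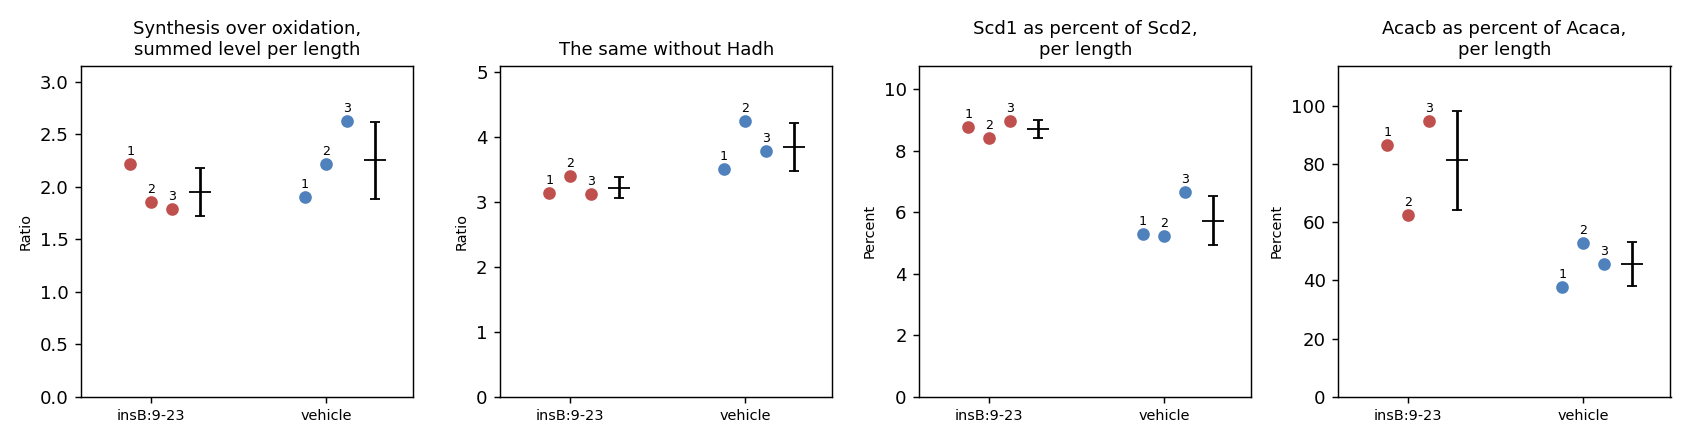
From left to right, the summed synthesis level over the summed oxidation level (CPM per kilobase), the same without Hadh, Scd1 as a percent of Scd2 and Acacb as a percent of Acaca per length, for each library (points, numbered by replicate) with the mean and SD of 3 libraries, insB:9-23 left of vehicle and axes from 0. The groups overlap in the first panel and are apart in the other three, lower after insB:9-23 without Hadh and higher for both sister pairs.

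Other genes of the same branches came from lists also made with earlier results of these data known, so they are no independent check. Of 28 further synthesis genes 26 were tested, and 0 passed the edgeR test after adjustment. Before adjustment 2 were below 0.05, both lower, against 5.55% of all genes, and their median log2 fold change was -0.082. Acss2, which makes acetyl-CoA from acetate, was at 22.5, 27.7 and 26.5 CPM in insB:9-23 replicates 1 to 3 and at 32.6, 29.4 and 31.03 CPM in vehicle replicates 1 to 3, without overlap (edgeR adjusted p = 0.88). Hacd2, a dehydratase of chain elongation, was at 7.62 ± 0.709 CPM after insB:9-23 and 11.7 ± 3.38 CPM in vehicle, with overlap (edgeR adjusted p = 0.88). Elovl7, an elongase, was at 5.46 ± 0.887 CPM after insB:9-23 and 3.86 ± 0.716 CPM in vehicle, without overlap (log2 fold change 0.50 ± 0.22, SE; edgeR adjusted p = 0.88). In this list the groups did not overlap for 2 genes lower and 2 genes higher after insB:9-23, of 26 tested. Over all genes tested the shares were 7.12% lower and 6.4% higher.

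Of 36 further oxidation genes 35 were tested, 0 passed after adjustment, and 2 were below an unadjusted edgeR p of 0.05, both lower, against 5.55% of all genes, with a median log2 fold change of 0.0041. The groups did not overlap for 6 genes lower and 2 genes higher after insB:9-23, beside 7.12% and 6.4% of all genes. Ppargc1a, the coactivator PGC-1alpha that drives mitochondrial oxidation programmes, was at 2.85, 3.09 and 2.71 CPM in insB:9-23 replicates 1 to 3, against 4.16, 4.13 and 4.01 CPM in vehicle replicates 1 to 3. All insB:9-23 libraries were below all vehicle libraries, with a log2 fold change of -0.51 ± 0.16 (SE; edgeR adjusted p = 0.88). Acaa1b, a peroxisomal thiolase with a close paralog whose reads the counting could split, had 6 to 45 counts per library (log2 fold change -2.03 ± 0.65, SE; edgeR adjusted p = 0.88). Hacl1, a peroxisomal lyase of branched-chain breakdown, was at 8.45 ± 0.486 CPM after insB:9-23 and 10.2 ± 0.416 CPM in vehicle (edgeR adjusted p = 0.88).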

How the data were processed

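RNA from islets was extracted with TRIzol and made into libraries with a KAPA stranded kit, per the labels' protocols. Each library has a table of unnormalised counts that the authors deposited, with Ensembl gene IDs, per the file headers. GRCm38 is the build in the submitters' processing notes, which also list featureCounts 1.5.0-p3, DESeq 1.8.3 and HISAT with no role. Annotation release and strand setting: not given in the sources used here. Sample titles gave the group and the replicate number.

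Symbols, positions and merged exon lengths were taken from GENCODE M21 (GRCm38), which gave a symbol to 55240 of 55421 gene IDs. The test was that of edgeR 4.0.16 (R 4.3.3): filterByExpr, TMM scaling and the robust quasi-likelihood F test of insB:9-23 against vehicle, adjusted by Benjamini and Hochberg over all 17016 genes tested. Standard errors are the log2 fold change divided by the root of F. CPM values use TMM-scaled library sizes, where 3 counts correspond to 0.0475 to 0.0655 CPM, and marker shares use total counts. The members and gene lists were chosen with earlier results of these data known.

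All 35 members may be named. Values in every library are given for members with an unadjusted p below 0.05, for those whose groups did not overlap with a fold past 1.2, and for the rate-setting genes Acaca, Fasn, Scd1, Scd2, Cpt1a, Cpt2, Acadvl and Hadha. A few members that varied or that neighbour these were added after their values were seen. Of the other pathway genes, the 3 with the smallest p in each list are named. The alternatives were RLE size factors, library totals alone, no filter, DESeq2 1.42.0, limma-voom (limma 3.58.1), the replicate number as a block, the share of 30 acinar markers as a covariate, and each library left out in turn. Other lengths and sums without Hadh or Acly were added after the data were seen. The test was checked on simulated data with known fold changes.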

Additional observations from a re-analysis of the deposited data

How the results depend on the processing

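None of the 35 genes passed an adjusted p of 0.05 in any of the 13 alternatives (edgeR, DESeq2 or limma-voom). In the edgeR fit as reported 5 had an unadjusted p below 0.05, all in synthesis, against 5.55% of all genes. Across the alternatives the synthesis count was 3 to 5, and the share of all genes 3.56% to 6.51%. Of 455 log2 fold changes under alternatives 415 kept their direction. Those that changed sign belonged to 15 genes, whose edgeR adjusted p was 0.93 or more as reported. The count of changed genes over the whole table was 14, against 106 with DESeq2, 9 with the acinar share as a covariate, and 16 to 26 with 1 library left out (23 without vehicle replicate 1, 25 and 26 without insB:9-23 replicate 1 and 3). Same-numbered libraries did not deviate together (correlations of -0.035, -0.064 and -0.025), so the numbers were not taken as pairs. With the replicate number as a block the count was 0, with 605 genes at an unadjusted p below 0.05. The synthesis median was -0.27 with library totals alone, -0.092 with the acinar covariate, and -0.15 to -0.077 with 1 library left out (-0.077 without insB:9-23 replicate 1, -0.082 without its replicate 3). The oxidation median was -0.13, -0.042, and -0.035 (without insB:9-23 replicate 3) to 0.060 (without its replicate 1) in the same fits.

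By library totals alone, under which the median of all genes was -0.15, log2 fold changes turned to -0.14 (Elovl1), -0.086 (Fads2), -0.11 (Acsl5, Cpt1c and Decr1), -0.13 (Acadm), -0.090 (Acadvl), -0.043 (Hadhb), -0.14 (Acox3 and Ppard) and -0.10 (Ehhadh). With the acinar covariate they turned to 0.38 (Elovl6), -0.033 (Fads2), -0.027 (Cpt1c), -0.015 (Acadm), -0.062 (Decr1), -0.069 (Ehhadh) and -0.076 (Ppard). Leaving out 1 library gave ranges across 0 for Elovl1 (-0.055 to 0.097), Elovl6 (-1.05 to 0.15), Acsl5 (-0.031 to 0.15), Acadm (-0.0097 to 0.061), Acadl (-0.12 to 0.066), Acads (-0.22 to 0.058), Hadh (-0.37 to 0.12), Hadhb (-0.0044 to 0.16), Decr1 (-0.073 to 0.23), Acox3 (-0.0067 to 0.058), Ehhadh (-0.044 to 0.16) and Ppard (-0.057 to 0.073). The cause was not tested. The mean of synthesis over oxidation was 1.95 after insB:9-23 and 2.25 in vehicle. It was 2.26 and 2.65 without length, 1.27 and 1.34 as geometric means, 1.10 and 1.26 by the longest coding transcript, 1.12 and 1.24 without Acly and Hadh, and 3.21 and 3.84 without Hadh. The groups overlapped in the first 3 of these and in the ratio as reported.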

Other observations

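Genes that store and release fatty acids, and those that take them up and bind them, are described here from lists that were also made with earlier results of these data known. Of 23 genes of triglyceride storage and lipolysis 21 were tested and 0 passed the edgeR test after adjustment, with 1 below an unadjusted p of 0.05 (higher) against 5.55% of all genes. Lpl, the lipase that frees fatty acids from circulating triglyceride, was at 200.3, 206.8 and 196 CPM in insB:9-23 replicates 1 to 3, against 179, 160 and 107.8 CPM in vehicle replicates 1 to 3. The groups did not overlap, and vehicle replicate 3 was the lowest library (log2 fold change 0.43 ± 0.19, SE; edgeR adjusted p = 0.88). Plin2, a lipid droplet coat protein gene, was at 13.7 ± 1.05 CPM after insB:9-23 and 10.8 ± 1.43 CPM in vehicle (SD, n = 3 each), again without overlap (log2 fold change 0.34 ± 0.14, SE; edgeR adjusted p = 0.88). Dgat2, which makes triglyceride, was at 2.65 ± 0.491 CPM after insB:9-23 and 1.78 ± 0.162 CPM in vehicle, without overlap (log2 fold change 0.57 ± 0.23, SE; edgeR adjusted p = 0.88). These 3 were the only genes of that list whose groups did not overlap with insB:9-23 higher, beside 6.4% of all genes tested, and for 0 of its genes insB:9-23 was lower without overlap, beside 7.12%.

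Of 16 genes of uptake, binding and activation 14 were tested, 0 passed after adjustment, and 1 was below an unadjusted edgeR p of 0.05, against 5.55% of all genes. That gene, Fabp5, a fatty acid binding protein, was at 4.37, 7.20 and 5.75 CPM in insB:9-23 replicates 1 to 3 and at 3.103, 4.65 and 3.13 CPM in vehicle replicates 1 to 3, with overlap (log2 fold change 0.67 ± 0.27, SE; edgeR adjusted p = 0.88). Dbi, the acyl-CoA binding protein, was at 18.2 ± 3.87 CPM after insB:9-23 and 14.7 ± 2.46 CPM in vehicle, and Acsl6 at 14.3 ± 1.51 and 15.9 ± 0.959 CPM.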
